A study of Mus musculus with 12 samples.

Results

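The 6 libraries of normal adjacent lung in a study of lung tumours and house dust mite were divided by their level of Chil3, which encodes the chitinase-like protein Ym1 of mouse macrophages. The libraries were chosen by this measured level. The rule placed a library above the threshold when Chil3 exceeded 1000 CPM (counts scaled to a fixed library total), whatever its treatment label, so 3 of the 6 fell above and 3 below, out of 12 libraries in the series. Chil3 stood at 7390 CPM in HDM replicate 1, 4835 CPM in HDM replicate 2 and 7094 CPM in VEH replicate 2. It stood at 76.5 CPM in HDM replicate 3, 85.6 CPM in VEH replicate 1 and 187 CPM in VEH replicate 3. The lowest library above the threshold was therefore HDM replicate 2 and the highest below it was VEH replicate 3. These values chose the libraries, carry no test, and are not used again.

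The mice carried LLC tumours (Lewis lung carcinoma, a mouse lung cancer cell line), and macroscopic tumours and normal adjacent lung were dissected under a binocular microscope. Each tissue was labelled HDM, for house dust mite, or VEH, which the labels do not spell out, with 3 libraries in each of the 4 groups. The series' design text calls the mite exposure chronic and the adjacent tissue matched. RNA came from small aliquots of frozen tissue. The labels used here give no strain, sex, age, dose or time, and they do not say that replicates are separate mice, so a p-value measures only the spread between these libraries. All 12 libraries carry 1 batch label. Both sides of the threshold hold both treatments: 2 HDM and 1 VEH library lie above it, and 1 HDM and 2 VEH libraries lie below it. Library names begin with a prefix that 1 adjacent lung and 1 tumour library share. The 3 adjacent lungs above the threshold share theirs with the 3 HDM tumours and the 3 below with the 3 VEH tumours, so VEH replicate 2 and HDM replicate 3 carry the prefix of a tumour of the other label. The labels do not state what the prefix stands for, and the labels were kept as given.

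Because a measured level divided the libraries, every gene of these 6 libraries counts as seen by the rule, and the differences between the sides are described without a test. Tests were run only on the labelled treatments, in adjacent lung and in the tumours. Library totals were 25453248 to 32765364 counts in adjacent lung and 20608682 to 30187882 in tumours. The tissue label was checked against lung markers: Sftpc, the surfactant protein of alveolar type 2 cells, ranged from 8497 to 25182 CPM in adjacent lung and from 3.12 to 4680 CPM in tumours. Mitochondrial transcripts took 1.96% to 2.52% of the counts above the threshold and 3.62% to 5.38% below it. Tumour-associated transcripts were highest in 1 adjacent lung: the secreted Wnt antagonist Dkk2, the chromatin protein Hmga2 and the homeobox gene Rhox5 stood at 104, 98.7 and 60.9 CPM in VEH replicate 2 and at no more than 8.85, 7.99 and 4.75 CPM in the other 5. Summed over the 11 counted members of the LLC list, the level was 337 CPM in VEH replicate 2. In the other 5 it was 23.4 to 54.5 CPM. The 8 members with a mean of at least 1 CPM all overlapped between the sides. The part of these differences in the results below was not tested. In pieces of tissue, fewer cells of a type and less RNA per cell cannot be told apart.

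Allergen-exposed lungs are known for alternatively activated macrophages, which make chitinase-like proteins under interleukin 4 and interleukin 13, and for mucous change of the airway epithelium. Resident alveolar macrophages clear surfactant, and B cells that have been helped by T cells switch from IgM to IgG, IgA or IgE and mature into plasma cells that secrete antibody. Neutrophils, recruited through the receptors Cxcr1 and Cxcr2, carry the calcium-binding proteins S100a8 and S100a9.

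Values below are TMM-scaled CPM, written first for the libraries above the threshold in the order HDM replicate 1, HDM replicate 2 and VEH replicate 2, then for those below in the order HDM replicate 3, VEH replicate 1 and VEH replicate 3. A gene is called apart when its lowest library on one side exceeds its highest on the other, and its gap is the ratio of those 2 values after adding 0.5 CPM. Among 18293 genes with a mean of at least 1 CPM, 2737 (15%) were apart and higher above the threshold and 2542 (13.9%) were apart and lower. A gap of at least 2-fold was met by 356 genes (1.95%) that were higher and by 42 (0.23%) that were lower. Without HDM replicate 2 these counts were 585 and 301. Of the 356, 94 were immunoglobulin genes or pseudogenes, out of 136 such genes measured (69.1%). Protein-coding genes supplied 218 of 13926 (1.57%) and long non-coding RNAs 43 of 3805 (1.13%). Some of these RNAs overlap a separated gene on the opposite strand. The strand setting of counting is not given, so reads of such pairs cannot be told apart. The filter lets a gene in through its high side alone, so counts within gene lists cover the members that passed it and are descriptive.

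Antibody genes separated the libraries most widely. Ighg1, the constant region of IgG1 heavy chains (chromosome 12, 113288860 to 113294143, minus strand), stood at 1202, 775 and 527 CPM above the threshold and 1.1, 0.493 and 0.253 CPM below it. The groups lay far apart, with a gap of 329-fold. Ighg2b stood at 319, 246 and 254 against 1.03, 0.739 and 1.52 CPM, and Ighg2c at 89.9, 60.5 and 63.6 against 0.11, 0 and 0.0842 CPM. All 3 libraries below the threshold were near 0 for the IgG subclasses, whatever their treatment label. Igha, the constant region of IgA, the antibody of mucosal surfaces, stood at 1597, 1389 and 958 against 16.4, 47.7 and 6.95 CPM, with VEH replicate 1 the highest of the low libraries. Jchain (chromosome 5, 88667668 to 88675750, minus strand), which joins IgA and IgM into polymers for secretion, stood at 1076, 646 and 592 against 5.01, 12.5 and 4.46 CPM, a log2 difference of 6.71 and a gap of 45.5-fold.

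IgM and light chains were also apart, by smaller ratios than IgG1. Ighm, the unswitched heavy chain, stood at 2046, 403 and 815 against 49, 47.1 and 31.4 CPM, a gap of 8.16-fold, with HDM replicate 1 highest and HDM replicate 2 lowest of the high libraries. Igkc, the kappa light chain, stood at 2862, 1542 and 1210 against 32.8, 32.9 and 19.7 CPM. Gm68839 overlaps it on the opposite strand, at 3720, 2024 and 1478 against 43.9, 47.1 and 25.8 CPM, and reads of these overlapping genes cannot be told apart. Ighg3 was barely apart, at 19.2, 0.302 and 3.21 against 0.295, 0 and 0 CPM, its level resting on HDM replicate 1. Ighe, the heavy chain of IgE that arms mast cells in allergy, gave 7 to 32 counts in the libraries above the threshold and 0 counts in the 3 below. Its lowest high library was at least 2.09-fold above a floor of 3 counts per library. Immunoglobulin constant genes resemble each other, and counting could split reads among them.

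**Figure D1:**
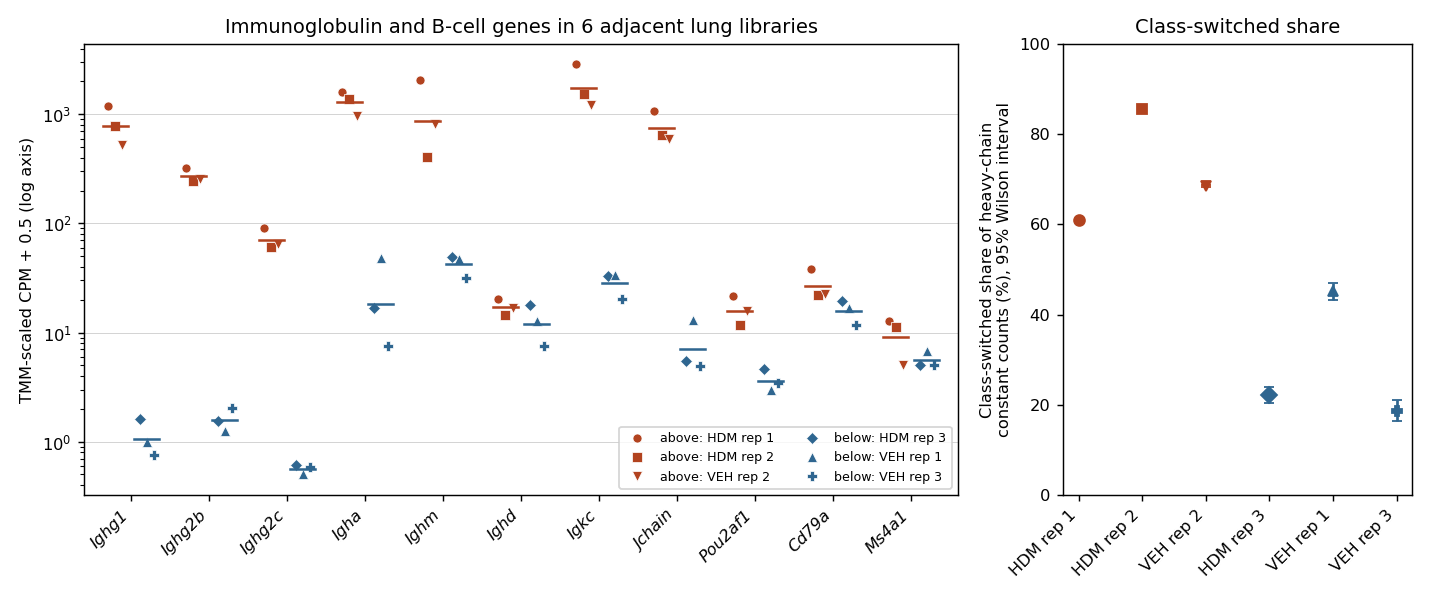
Left, TMM-scaled CPM + 0.5 on a log axis for 11 immunoglobulin and B-cell genes. Each point is 1 adjacent lung library, orange above and blue below the Chil3 threshold, and bars are geometric means of 3 libraries; Ighg1 runs from 527 to 1202 CPM above and from 0.253 to 1.1 CPM below, whereas Ighd and Ms4a1 overlap. Right, the class-switched share of heavy-chain constant counts in each library with its 95% Wilson interval, 61% to 85.6% above and 18.7% to 45.2% below.

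The composition of heavy-chain transcripts differed along with their amount. Class-switched isotypes (IgG1, IgG2b, IgG2c, IgG3, IgA and IgE) made up 61% of heavy-chain constant counts in HDM replicate 1 (95% Wilson interval 60.7% to 61.2%), 85.6% in HDM replicate 2 (85.3% to 85.8%) and 68.5% in VEH replicate 2 (68.2% to 68.8%). Below the threshold the share was 22.2% in HDM replicate 3 (20.5% to 23.9%), 45.2% in VEH replicate 1 (43.3% to 47.1%) and 18.7% in VEH replicate 3 (16.5% to 21%). The sides did not overlap, and the intervals cover counting error only, since reads without molecular identifiers are not independent molecules. The denominators were 76500 to 129253 counts above and 1120 to 2637 below. Variable segments were broadly used in the high libraries: 66 to 74 of 113 heavy-chain V genes and 66 to 75 of 100 kappa V genes had at least 10 counts. The most abundant heavy-chain V gene took 6.69%, 13% and 8.03% of V-segment counts there, so no single segment dominated. Below the threshold only 1 to 6 heavy-chain V genes reached 10 counts, from 64 to 193 V-segment counts in all, so breadth was not compared at this depth.

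Several genes of B-cell identity did not follow the antibody genes. Ms4a1, which encodes CD20, stood at 12.2, 10.8 and 4.59 against 4.49, 6.32 and 4.59 CPM, and the sides overlapped. Ighd, the IgD heavy chain of naive B cells, overlapped at 19.7, 14 and 16.3 against 17.5, 12.2 and 6.99 CPM, as did Pax5, the transcription factor of B-cell commitment. Cd79a and Cd79b, the signalling chains of the receptor, were apart by small gaps of 1.15-fold and 1.12-fold. Pou2af1, a co-activator of immunoglobulin genes, was apart at 21.3, 11.1 and 15.2 against 4.12, 2.46 and 2.95 CPM. Fcer2a, the low-affinity IgE receptor CD23, stood at 9.01, 14.9 and 5.54 against 3.65, 2.46 and 2.11 CPM, and Derl3, an endoplasmic reticulum protein of secretory cells, at 7.29, 5.59 and 2.96 against 1.77, 1.93 and 1.35 CPM. The plasma-cell genes Mzb1, Sdc1, Prdm1 and Xbp1 overlapped. Of 29 measured members of the B and plasma cell list, 16 were apart and higher, beside 15% of all genes, and none lower. A gap of at least 2-fold was met by 10 of the 29, beside 1.95% of all genes. The median log2 difference of the list was 0.81 against -0.033 over all genes. Pigr, the epithelial receptor that carries polymeric IgA across the airway lining, was also apart, at 338, 949 and 256 against 120, 115 and 162 CPM.

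Macrophage genes were also widely separated. Ccl6, a chemokine of macrophages and other myeloid cells (chromosome 11, 83478708 to 83483913, minus strand), stood at 1308, 1148 and 1242 CPM above the threshold and 35.6, 44.4 and 66.1 CPM below it, a gap of 17.3-fold. Atp6v0d2, a macrophage and osteoclast subunit of the vacuolar proton pump (chromosome 4, 19876838 to 19922614, minus strand), stood at 226, 169 and 221 against 7.99, 13.3 and 13.9 CPM. Cd68, a lysosomal glycoprotein of macrophages (chromosome 11, 69555037 to 69557067, minus strand), stood at 176, 141 and 160 against 16.5, 13 and 8.84 CPM. For each of these 3 genes VEH replicate 2 lay between the 2 HDM libraries above the threshold, and HDM replicate 3 lay with the VEH libraries. Atp6v0d2 and Cd68 each overlap a gene on the opposite strand (Gm68467 and Gm73992), and the labels do not say whether counting used strand.

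Alveolar macrophage genes were 14 of 20 apart and higher, beside 15% of all genes, and none was apart and lower. A gap of at least 2-fold was met by 6 of the 20, beside 1.95% of all genes. Ear2, an eosinophil-associated ribonuclease also made by alveolar macrophages, stood at 131, 96.5 and 136 against 12.3, 19 and 26.8 CPM. Its relative Ear6 stood at 5, 5.97 and 6.1 CPM above and had 0 counts in the 3 libraries below, at least 39.6-fold higher against a floor of 3 counts per library. The Ear genes are close copies, and their counts could be shared. Fabp4, a lipid-binding protein, stood at 72.4, 29.4 and 75.3 against 6.33, 3.7 and 6.23 CPM, Siglecf at 8.36, 8.99 and 10.5 against 2.21, 2.14 and 4.38 CPM, and Pparg, the transcription factor that alveolar macrophages need to mature, at 28, 24.9 and 25 against 10.1, 13.6 and 10.1 CPM. Ctsd, a lysosomal protease, was among the most abundant, at 1499, 1235 and 1396 against 199, 250 and 287 CPM. Marco, a scavenger receptor, overlapped at 1.8, 11 and 16.1 against 2.36, 3.7 and 3.37 CPM, low in HDM replicate 1, and Car4 and Krt19 overlapped as well.

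The alternatively activated list split into genes that were apart and genes that were not. Mrc1, the mannose receptor (chromosome 2, 14234151 to 14336926, plus strand), stood at 208, 170 and 216 against 28.7, 40.2 and 30.1 CPM. Itgax, the integrin CD11c of alveolar macrophages and dendritic cells (chromosome 7, 127728668 to 127749829, plus strand), stood at 231, 172 and 162 against 24.6, 20.4 and 12.2 CPM. Gpnmb, Trem2 and Ctsk, genes of lipid-laden and matrix-degrading macrophages, had gaps of 4.11-fold, 4.04-fold and 3.36-fold. In contrast, Arg1, the arginase induced by interleukin 4, overlapped at 28.5, 3.17 and 130 against 0.957, 1.48 and 5.52 CPM, high in VEH replicate 2 and low in HDM replicate 2. Retnla, the secreted protein Fizz1, overlapped at 69.7, 493 and 79.8 against 69.1, 132 and 201 CPM, with only HDM replicate 2 above the libraries on the other side. Chil4, the closest relative of Chil3, was apart at low levels, 1.15, 1.59 and 1.16 against 0, 0.246 and 0.211 CPM, and reads could be shared between these near-identical genes. The chemokines Ccl17 and Ccl22 and the lectin Mgl2 overlapped. In all, 9 of 19 measured members were apart and higher, beside 15% of all genes, and none was apart and lower. A gap of at least 2-fold was met by 5 of the 19, beside 1.95% of all genes.

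Fewer genes of the monocyte and interstitial macrophage list were apart. Siglec1, the sialoadhesin of tissue macrophages, stood at 40.1, 19.5 and 23.5 against 1.99, 1.23 and 1.68 CPM. Ly6c2, a marker of classical monocytes, stood at 47.2, 26.3 and 27.6 against 4.9, 2.79 and 6.23 CPM. C1qb was apart, while C1qa and C1qc, which encode the other chains of the same complement protein, overlapped, as did Apoe and Folr2. Ccr2, the monocyte chemokine receptor, overlapped at 79, 28.1 and 41 against 43.4, 38.4 and 12 CPM. In the monocyte and interstitial macrophage list 6 of 18 were apart and higher and none lower, beside 15% and 13.9% of all genes. Spp1 and Fn1, matrix proteins that macrophages also make, overlapped and were highest in VEH replicate 2, at 678 and 847 CPM. Slc39a2, a zinc transporter, had a gap of 19.5-fold, the widest of the named genes after Jchain and the antibody locus genes, at 32.9, 25.7 and 22.4 against 0.368, 0.493 and 0.674 CPM.

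**Figure D2:**
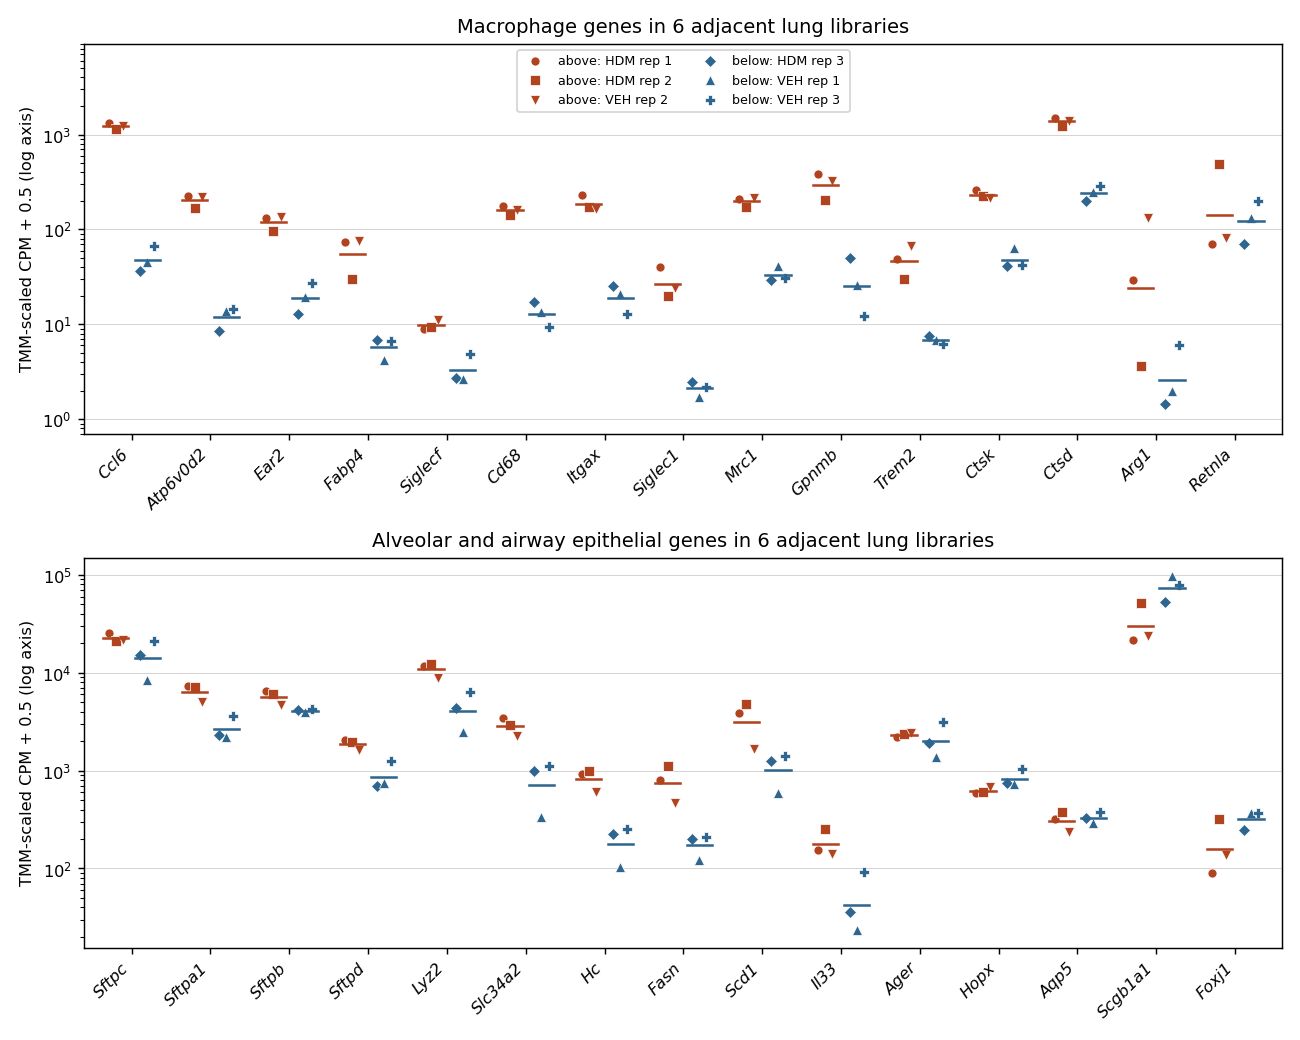
TMM-scaled CPM + 0.5 on log axes for 15 macrophage genes (top) and 15 alveolar and airway epithelial genes (bottom), with 1 point per adjacent lung library, orange above and blue below the Chil3 threshold, and bars at geometric means of 3 libraries. Ccl6 runs from 1148 to 1308 CPM above and from 35.6 to 66.1 CPM below, whereas Arg1 and Retnla overlap; Sftpa1, Slc34a2, Hc and Fasn are higher above the threshold, and Ager and Aqp5 overlap.

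Alveolar type 2 cell genes were higher above the threshold, with smaller gaps: 14 of 17 were apart and higher, beside 15% of all genes. A gap of at least 2-fold was met by 3 of the 17, beside 1.95% of all genes, and the median log2 difference of the list was 1.26. Slc34a2, the phosphate transporter of these cells (chromosome 5, 53195423 to 53229006, plus strand), stood at 3466, 2894 and 2259 against 986, 336 and 1106 CPM. Hc, which encodes complement C5, stood at 919, 987 and 607 against 222, 103 and 251 CPM, and Fasn, the fatty acid synthase that feeds surfactant lipid, at 795, 1124 and 467 against 201, 121 and 211 CPM. The surfactant proteins were apart by narrower margins. Sftpa1 stood at 7237, 7115 and 5005 against 2328, 2185 and 3596 CPM and Sftpd at 2035, 1944 and 1622 against 695, 753 and 1240 CPM. Sftpc, at 25182, 21182 and 21697 against 15192, 8497 and 21129 CPM, was barely apart, with VEH replicate 3 just under HDM replicate 2. Lyz2, the lysozyme shared by type 2 cells and macrophages, stood at 11739, 12243 and 8790 against 4350, 2450 and 6423 CPM, while Lyz1 overlapped. Il33, an epithelial alarmin that opens type 2 responses, stood at 154, 252 and 140 against 35.8, 22.8 and 90.6 CPM and was apart.

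Few genes of the other alveolar and airway cell types were apart and higher. None of 12 alveolar type 1 genes was apart and higher. Hopx and Cav1 were apart and lower, beside 13.9% of all genes, by gaps of 1.08-fold and 1.11-fold. In the stress list Gdf15, a stress-induced cytokine, stood at 17.3, 14 and 9.19 against 1.03, 1.81 and 1.43 CPM, and Lgals3, or galectin 3, at 383, 342 and 445 against 118, 131 and 149 CPM. Krt8 and Krt18, keratins of transitional alveolar cells, overlapped. Of the 18 measured genes of that list 3 were apart and higher, near the 15% of all genes, 1 was apart and lower, and the median log2 difference was 0.14, between 0.009 (without VEH replicate 1) and 0.258 (without HDM replicate 1) when 1 library was left out. Scgb1a1, the main secretory protein of club cells, was apart and lower, at 21507, 50964 and 23837 against 53358, 97559 and 78318 CPM, with HDM replicate 2 close to HDM replicate 3. Of 17 club cell genes, 4 were apart and lower and Scgb3a1 alone was apart and higher. Of 16 ciliated cell genes, 3 were apart and lower and none higher. Of all genes, 13.9% were apart and lower. The median log2 differences were -0.88 for the club cell list and -0.91 for the ciliated cell list. HDM replicate 2 stood out from the other high libraries in both lists, with Foxj1, the regulator of ciliation, at 319 CPM against 90.2 and 136 CPM.

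Slc26a4, or pendrin, the anion exchanger that airway epithelium makes under interleukin 13 (chromosome 12, 31568169 to 31610244, minus strand), stood at 38.9, 65.3 and 21.4 CPM above the threshold and 2.25, 0.329 and 0.926 CPM below it. The sides were apart by a gap of 7.96-fold, and VEH replicate 2 was high with the 2 HDM libraries. The mucins and goblet cell genes did not follow it. Muc5ac, the inducible airway mucin, stood at 1.31, 20.2 and 1.2 against 1.8, 3.12 and 2.11 CPM, and Muc5b, the constitutive one, at 44.4, 564 and 32.6 against 24.9, 33.6 and 46.1 CPM. In both only HDM replicate 2 was high, and HDM replicate 1 and VEH replicate 2 lay within or below the range of the low libraries. Clca1, a goblet cell protease, stood at 0.041, 34.4 and 0 against 0, 0.821 and 1.77 CPM. Bpifb1 and Reg3g, antimicrobial secretions, reached 489 and 278 CPM in HDM replicate 2 and no more than 24.1 and 5.85 CPM in the other 5. Spdef, the transcription factor of goblet cells, overlapped at 0.901, 4.98 and 0.881 against 3.31, 5.59 and 4.46 CPM. Of 14 measured mucous genes, Slc26a4, Ptger3 and Fcgbp were apart and higher, beside 15% of all genes. The median log2 difference of the list was 1.14, or -0.124 without HDM replicate 2, 1.931 without HDM replicate 1 and 1.913 without VEH replicate 2. Pendrin's oxidant partners Duox1 and Duox2 were at no more than 1.81 CPM in any adjacent lung, and the sodium channel subunit Scnn1a, at 563, 577 and 566 against 321, 310 and 383 CPM, was apart.

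Neutrophil genes had a median log2 difference of 2.58 and varied among the high libraries. S100a8 (chromosome 3, 90567118 to 90578128, plus strand) stood at 163, 23.3 and 248 against 5.34, 9.08 and 5.64 CPM, and S100a9 at 225, 33.5 and 356 against 9.39, 21.4 and 7.07 CPM. HDM replicate 2 was the nearest of the high libraries to the low ones, and the other 2 were far above. HDM replicate 2 was likewise the lowest of the high libraries for Cxcr2, Csf3r and the collagenase Mmp8. Cxcr2, the chemokine receptor of mature neutrophils, stood at 49.7, 7.25 and 44.7 against 1.18, 2.55 and 0.842 CPM. Csf3r, the receptor of granulocyte colony-stimulating factor, stood at 71, 9.29 and 77.5 against 6.48, 3.94 and 3.37 CPM. Ngp and Camp, granule genes of immature neutrophils, overlapped, and Mpo and Elane gave at most 0.41 CPM. Cxcr1 did not follow this pattern: it stood at 39.4, 26.9 and 16.7 against 0.295, 0.329 and 0.421 CPM, a gap of 18.7-fold. Fpr1, a formyl peptide receptor, at 16.5, 11.4 and 12.3 against 0.884, 2.3 and 2.74 CPM, and Wfdc21, at 14.8, 17.7 and 21.1 against 1.18, 1.72 and 2.19 CPM, were also of similar height in the 3 high libraries. Of 23 measured neutrophil genes 16 were apart and higher, beside 15% of all genes, and G0s2 was apart and lower. A gap of at least 2-fold was met by 10 of the 23, beside 1.95% of all genes.

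Acute-phase genes, several of which inflamed epithelium also makes, differed in how evenly the high libraries shared them. Lcn2, a siderophore-binding protein of neutrophils and epithelium (chromosome 2, 32274645 to 32278264, minus strand), stood at 751, 947 and 510 against 40.3, 31.1 and 65.3 CPM, highest in HDM replicate 2. Lrg1, a secreted glycoprotein induced by inflammation, stood at 606, 477 and 372 against 44.8, 39.2 and 44.3 CPM. Gm56918, which overlaps it on the opposite strand, stood at 619, 488 and 394 against 49, 41.6 and 50.7 CPM, and reads of this pair cannot be told apart. Saa3, an acute-phase protein, was the most uneven, at 249, 7.85 and 2048 against 1.33, 3.7 and 2.06 CPM, with VEH replicate 2 far above all others. Cxcl5, a ligand of Cxcr2, stood at 14, 5.32 and 16.7 against 0.884, 0.411 and 0.674 CPM, and Cxcl1 at 2.62, 1.66 and 16.5 against 0.957, 0.575 and 0.926 CPM. Cxcl15, or lungkine, overlapped. Of 11 ligand and acute-phase genes 6 were apart and higher, beside 15% of all genes, and none lower.

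**Figure D3:**
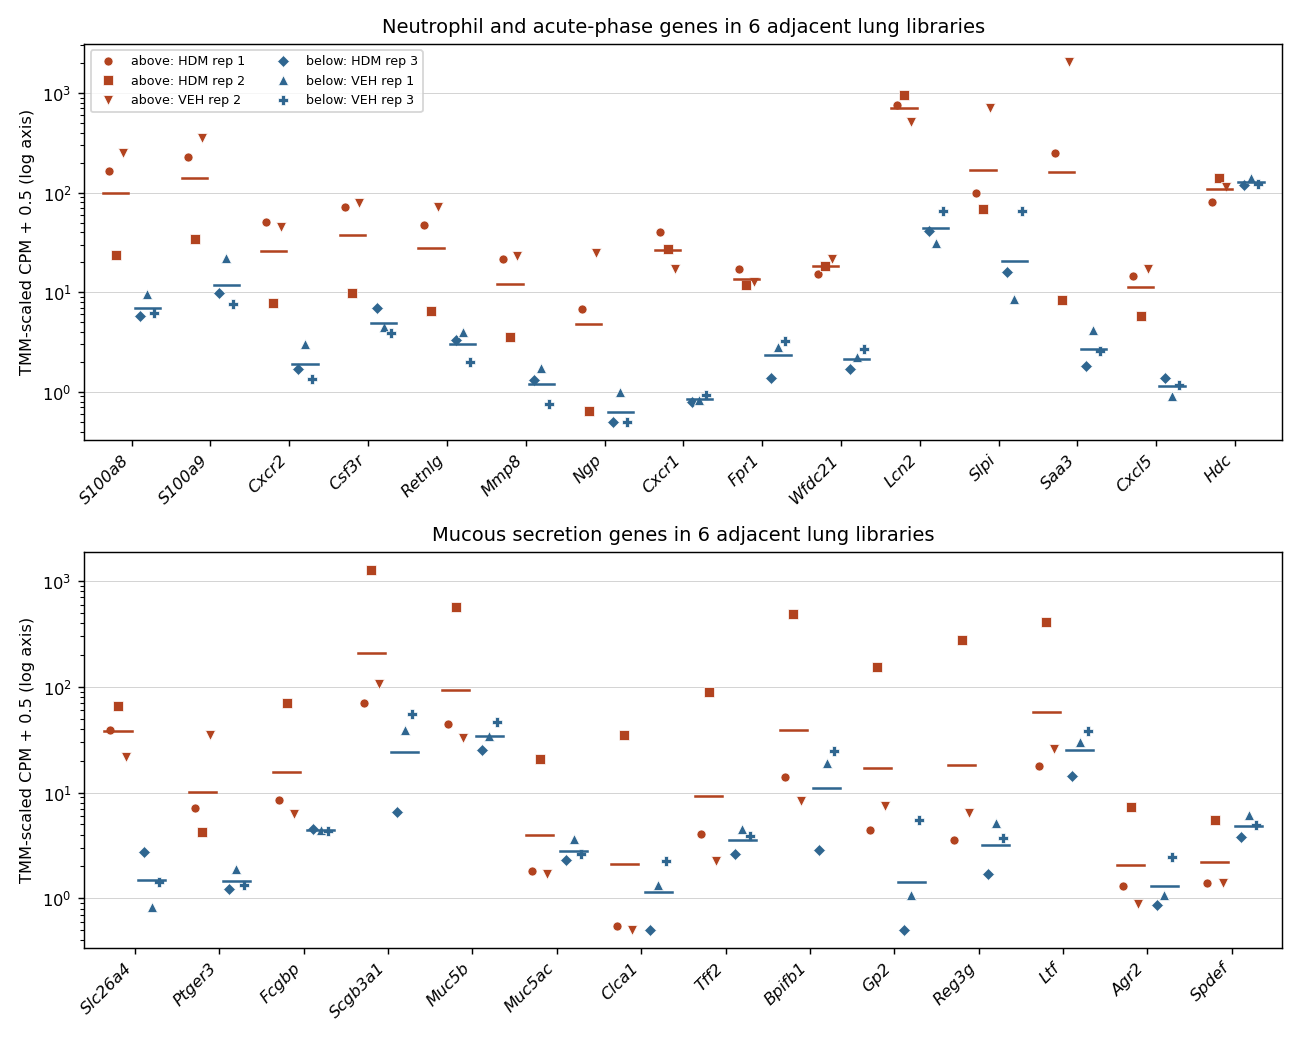
TMM-scaled CPM + 0.5 on log axes for 15 neutrophil and acute-phase genes (top) and 14 mucous secretion genes (bottom), with 1 point per adjacent lung library, orange above and blue below the Chil3 threshold, and bars at geometric means of 3 libraries. HDM replicate 2 (orange squares) is the lowest high library for S100a8, at 23.3 CPM, and the highest for Muc5b, at 564 CPM, while Slc26a4 is above 21 CPM in each high library.

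The type 2 cytokines themselves were scarcely detected. Il5 and Il13 had 0 counts in the 3 libraries above the threshold, which allows up to 3 counts per library. Il5 stood at 0.0737, 0.452 and 0 and Il13 at 0.221, 0 and 0 CPM below it. Il4 stood at 0.942, 1.4 and 0.818 against 1.62, 2.51 and 1.94 CPM, apart and lower, and Kif3a overlaps it on the opposite strand with 4044 counts over the 6 libraries against 237. Il4ra, the receptor chain shared by interleukin 4 and interleukin 13, was apart and higher at 184, 132 and 170 against 91.3, 88.8 and 77.3 CPM, and Stat6, which acts downstream of it, at 136, 141 and 126 against 111, 104 and 105 CPM. Gata3 and Tslp were apart and lower. Of 18 measured members of the type 2 cytokine and receptor list, 5 were apart and higher and 4 lower, beside 15% and 13.9% of all genes. Only 1 was higher by a gap of at least 2-fold, beside 1.95% of all genes, and the median log2 difference was 0.35. Of the eosinophil granule genes, Epx, an eosinophil peroxidase, gave no count in any of the 12 libraries. Prg2 was low yet apart and higher, at 4.22, 1.43 and 1.89 against 0.368, 0 and 0 CPM. Alox15, a lipoxygenase of eosinophils and alternatively activated macrophages, stood at 7.74, 1.96 and 9 against 0, 0.0821 and 0.589 CPM. Mast cell proteases Cma1, Tpsb2 and Tpsab1 were each below 1 CPM in every adjacent lung. The eosinophil, mast cell and basophil list had 4 of 9 measured members apart and higher, beside 15% of all genes, and none lower. The 4 were Prg2, Siglecf, Alox15 and Ear6. Its median log2 difference was -0.22, or 0.015 without VEH replicate 1 and 0.065 without VEH replicate 2. This median was -0.002 without HDM replicate 1 and -0.021 without HDM replicate 2. The level of the list per library ran the other way. As the median deviation from the mean of the 6, it was 0.34, 0.26 and 0.69 above the threshold and -0.58, 0.15 and -0.21 below. Siglecf, Alox15 and Ear6 are also macrophage genes.

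In the lymphocyte, interferon and antigen presentation lists most genes overlapped between the sides. Of all genes, 15% were apart and higher and 13.9% apart and lower. Of 22 measured T and NK cell genes 4 were apart and higher and none lower, and the median log2 difference was 0.16, or -0.016 without HDM replicate 1, -0.054 without VEH replicate 3, 0.336 without HDM replicate 3 and 0.309 without VEH replicate 2. Cd3e, a chain of the T-cell receptor complex, stood at 6.31, 2.87 and 1.57 against 2.5, 2.34 and 1.85 CPM. Of 21 interferon response genes 5 were apart and higher, Irf7 and Tap1 among them, and 2 were apart and lower. Of 23 dendritic cell and antigen presentation genes 1 was apart in each direction, below both shares of all genes. H2-Ab1, an MHC class II chain, stood at 553, 559 and 296 against 514, 496 and 405 CPM and was lowest in VEH replicate 2.

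Fewer genes were lower above the threshold by a gap of at least 2-fold, and the 15 lower genes named by their gaps had gaps of 1.96-fold to 3.49-fold, against 6.77-fold to 45.5-fold for the 15 higher ones. Esm1, a proteoglycan of sprouting endothelial tip cells (chromosome 13, 113346021 to 113354632, plus strand), had the widest gap of the named lower genes, 3.49-fold, at 11.6, 15.2 and 15.9 against 56.5, 76.7 and 64.5 CPM. Apln, the ligand of the apelin receptor and likewise a tip cell gene, stood at 19, 22.2 and 10.9 against 47, 45.7 and 47.4 CPM, a gap of 2.03-fold. Its receptor Aplnr stood at 32.4, 23.9 and 10.1 against 67.7, 50.4 and 36.3 CPM. Aplnr and the next 2 genes were apart by gaps under 1.5-fold. Cldn5, the tight junction protein of endothelium, stood at 320, 321 and 188 against 561, 567 and 468 CPM, and Plvap, which forms diaphragms in fenestrated vessels, at 261, 404 and 187 against 488, 498 and 547 CPM. Pan-endothelial Pecam1 and Cdh5 overlapped and were lowest in VEH replicate 2. Altogether 5 of 21 endothelial genes were apart and lower, beside 13.9% of all genes. Only Apln was lower by a gap of at least 2-fold, beside 0.23% of all genes, and Icam1 alone was apart and higher.

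In the fibroblast and matrix list 5 of 28 genes were apart and lower, near the 13.9% of all genes and none by a gap of at least 2-fold, and Col6a1 and Sfrp1 were apart and higher. The median of the list was -0.2, or 0.035 without VEH replicate 1, -0.006 without HDM replicate 3 and -0.686 without VEH replicate 3. Outside that list, Fendrr, a long non-coding RNA of lung mesenchyme, stood at 13.5, 10.9 and 5.35 against 61.7, 33.7 and 37.4 CPM. Among the list's lower members, Inmt, a methyltransferase abundant in lung, stood at 1083, 715 and 302 against 1671, 2043 and 1883 CPM, and Tcf21, a transcription factor of lipofibroblasts, at 46.3, 48.4 and 10.6 against 79.8, 103 and 58.8 CPM. Aspn, a small matrix proteoglycan named by its gap, stood at 8.68, 7.32 and 4.97 against 31.3, 48.9 and 21.8 CPM. Sox11, Aard, Olfm2 and Ces1f, named by their gaps, had log2 differences of -2.26, -2.03, -1.60 and -2.41. Collagen genes Col1a1, Col1a2 and Col3a1 overlapped. Smooth muscle genes had a median of -1.56, yet 9 of 11 overlapped, with VEH replicate 3 near the high libraries: Acta2 stood at 130, 108 and 21.6 against 514, 523 and 54.1 CPM. Genes of neighbouring tissues also varied. Mesothelial genes had a median of 2.04 (0.697 without VEH replicate 1 and 3.338 without VEH replicate 3) with all 10 overlapping, and Msln ran from 3.94 CPM in VEH replicate 1 to 448 CPM in VEH replicate 2. Cardiac genes had a median of 1.34 (0.392 without HDM replicate 2, 2.121 without HDM replicate 3 and 2.045 without VEH replicate 2) with all 10 overlapping, and Myh6, a cardiac myosin, ran from 0.0411 CPM in VEH replicate 1 to 158 CPM in HDM replicate 2. Of 20 cell cycle genes 18 overlapped, and VEH replicate 2 was highest, where Mki67 stood at 33.7 CPM against 7.56 to 12.8 CPM in the other 5. The median of that list was 0.58, or -0.027 without VEH replicate 2, 0.872 without HDM replicate 1 and 0.955 without HDM replicate 2. In the small adipose list Fabp4 alone of 5 was apart and higher, beside 15% of all genes. In the basal and tuft cell list 2 of 5 were apart and higher, Alox5ap and Ltc4s, genes of leukotriene synthesis.

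**Figure D4:**
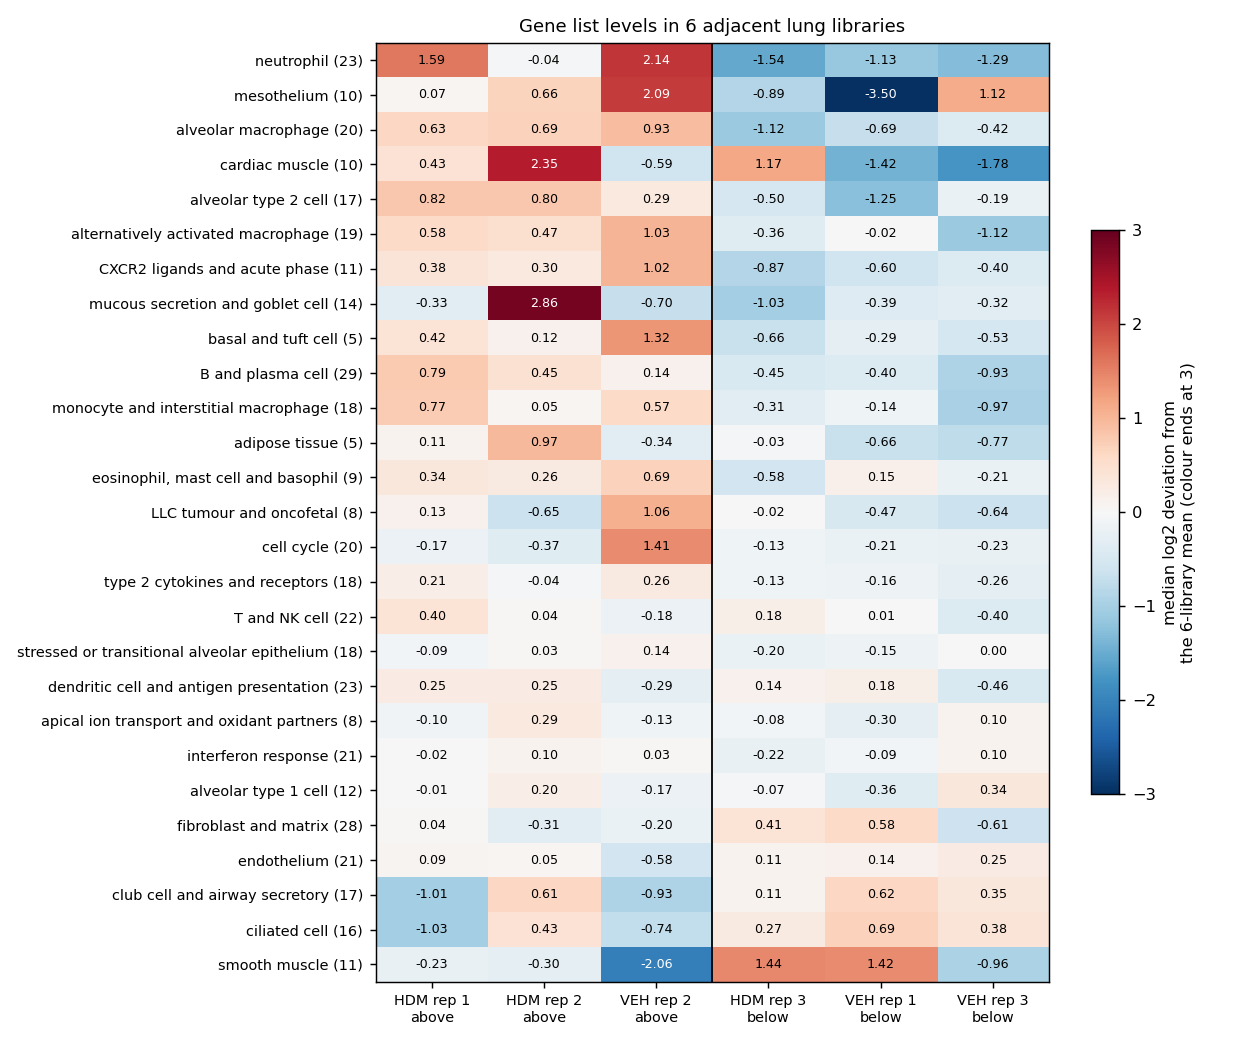
Level of 27 gene lists (rows, with the number of members that passed the filter) in the 6 adjacent lung libraries (columns, 3 above and 3 below the Chil3 threshold), as the median over members of the log2 deviation from the 6-library mean. The neutrophil list runs from -0.04 to 2.14 above and from -1.54 to -1.13 below, and the mucous list is high in HDM replicate 2 alone, at 2.86.

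The promoters of the separated genes were read for 4 motifs, in the 250 bases before the start of GENCODE's canonical transcript (GRCm39), on both strands. PU.1, the master factor of macrophages and neutrophils, was searched by its core GAGGAAGT. It was found in 17 of the 218 protein-coding genes that were higher by a gap of at least 2-fold (7.8%) and in 300 of all 13926 protein-coding genes (2.15%). C/EBP factors of myeloid and alveolar cells were searched by the half-site pair TTGCNNAA, found in 33 of the 218 (15.1%) and in 1153 of all (8.28%). Stat6, the factor of interleukin 4 signalling, was searched by TTC and GAA separated by any 4 bases, found in 12 of the 218 (5.5%) and in 732 of all (5.26%). The cyclic AMP element TGACGTCA was found in 2 of the 218 (0.917%) and in 272 of all (1.95%). Among the 21 protein-coding genes that were lower by such a gap, the counts were 0, 3, 1 and 1 in the same order. These shares are descriptions of letters in a window, without a test, and the motifs were chosen with the gene values known.

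Promoters of 2 myeloid genes of the higher set are shown for where such letters lie, as 250 bases read 5′ to 3′ on the gene's strand, the last base adjoining the transcript start, with matches in capitals. S100a8 holds the PU.1 core on the opposite strand, with its first base at -79, and Itgax holds a Stat6 site at -73. The S100a8 window lies within the gene's annotated span but in no exon.
S100a8 (GRCm39 chr3:90576035-90576284, plus strand): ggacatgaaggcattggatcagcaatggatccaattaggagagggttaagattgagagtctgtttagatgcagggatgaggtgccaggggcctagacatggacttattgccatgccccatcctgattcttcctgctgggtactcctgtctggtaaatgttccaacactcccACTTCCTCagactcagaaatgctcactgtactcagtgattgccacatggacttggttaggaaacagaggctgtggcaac
Itgax (GRCm39 chr7:127728418-127728667, plus strand): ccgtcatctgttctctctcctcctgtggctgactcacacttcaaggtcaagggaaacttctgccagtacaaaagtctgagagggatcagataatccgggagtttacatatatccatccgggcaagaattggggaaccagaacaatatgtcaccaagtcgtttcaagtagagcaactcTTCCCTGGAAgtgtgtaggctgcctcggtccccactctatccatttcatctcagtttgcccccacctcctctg
Lcn2 held a C/EBP pair at -158 and a Stat6 site at -98, and Slc39a2, Jchain and Pou2af1 each held a C/EBP pair. The Lcn2 window overlaps an exon of another Lcn2 transcript and that of Slc39a2 lies in an exon of Mettl17. None of the 4 motifs was found in the windows of Slc26a4, Ccl6 or Il33, which says only that these letters are not there.

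The treatment labels did not separate these libraries in the same way. For HDM against VEH in adjacent lung, edgeR's quasi-likelihood test called 0 of 22190 genes at an adjusted p below 0.05 (0%), with 1230 genes at an unadjusted p below 0.05 and a smallest adjusted p of 0.801, while DESeq2's Wald test called 43. Only 20 of 18293 genes (0.109%) had HDM libraries all at least 2-fold above VEH libraries, and 0 the reverse. Without VEH replicate 2 and HDM replicate 3, the 2 libraries with a conflicting prefix, edgeR called 39 genes, but in the 4 libraries left the label and the Chil3 threshold are the same split. Jchain differed between the labels by 1.5 on the log2 scale (SE 1.78, edgeR adjusted p = 1), Ccl6 by 0.88 (SE 1.27, adjusted p = 1) and Slc26a4 by 2.23 (SE 1.67, adjusted p = 0.953), each with 1 library of either label on the other side of the threshold.

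The tumours were not used by the rule, and those that share a prefix with the high adjacent lungs are the 3 HDM tumours. For HDM against VEH in tumours edgeR called 2 genes higher (0.00901%) and 19 lower (0.0856%) of 22190, and no gene without any one of VEH replicates 1, 2 and 3 and HDM replicates 1 and 2. A gap of at least 2-fold was met by 9 genes that were higher under HDM (0.0532%) and by 110 that were lower (0.65%), of 16916. Of the 356 genes with a gap in adjacent lung, 262 outside the receptor segments could be tested in tumours. None of these was called by edgeR, and 8 had an unadjusted p below 0.05. Among all 18149 such genes that passed the filter and were tested, 3324 had an unadjusted p below 0.05. Of the 262, 125 (47.7%) were higher under HDM, beside 45.6% of all genes. Of the 42 lower genes, 0 were called by edgeR, 6 had an unadjusted p below 0.05 and 12 (28.6%) were higher under HDM. The fit took each gene's spread from all 12 libraries, and each lung label group held libraries from both sides of the threshold. Genes with a gap in adjacent lung therefore entered the test with a wide spread because of how they were chosen. Their lack of calls, here and for single genes below, cannot show whether they differed between the tumour labels.

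Antibody genes in tumours were high in 2 of the 3 HDM libraries. Ighg1 stood at 1.49, 68.8 and 33.9 CPM in HDM replicates 3, 1 and 2 and at 0.0923, 0.0425 and 0 CPM in VEH replicates 3, 1 and 2. The labelled difference was 9.54 on the log2 scale (SE 3.81, edgeR adjusted p = 0.259) and did not pass the threshold. DESeq2 did call it. Igha stood at 0.849, 80.7 and 93.4 against 2.58, 8.75 and 8.33 CPM (edgeR adjusted p = 0.436) and Jchain at 2.85, 21.9 and 47.1 against 1.2, 2.12 and 4.98 CPM (adjusted p = 0.442). HDM replicate 3 lay with the VEH tumours for Igha and Jchain, although its prefix is that of HDM replicate 1 of adjacent lung, the library with the most Ighg1. In the same order, the summed club cell list stood at 89.7, 1049 and 1506 against 7204, 653 and 23874 CPM. The summed alveolar type 2 list stood at 1899, 6945 and 7260 against 5332, 7116 and 14332 CPM. How far lung tissue in the tumour pieces entered the antibody values was not tested. The class-switched share was 15.9%, 84.8% and 65.4% in the HDM tumours and 11.4%, 35.6% and 27.7% in the VEH tumours, from 658 to 7375 heavy-chain constant counts.

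Other genes that were higher in the lungs above the threshold gave mixed values in tumours. Ccl6 stood at 164, 111 and 312 against 76.3, 134 and 106 CPM and Slc26a4 at 0, 7.39 and 4.75 against 3.92, 4.97 and 8.92 CPM, and both overlapped between labels. Itgax ran the other way, at 4.46, 40.9 and 54 against 78.2, 129 and 75 CPM, and did not pass the test (edgeR adjusted p = 0.519). Mrc1 was apart, at 352, 91.9 and 143 against 61.1, 37.9 and 38.6 CPM (edgeR log2 difference 2.09, SE 0.88, adjusted p = 0.276), and did not pass the test. The list members that did pass were 4 antigen presentation genes. H2-Ab1 fell by 2.87 on the log2 scale (SE 0.43, edgeR adjusted p = 0.0446), from 701, 922 and 913 CPM under VEH to 41.9, 177 and 128 CPM under HDM. H2-DMa, which loads peptide on class II molecules, fell by 1.74 (edgeR adjusted p = 0.0274), and the immunoproteasome subunits Psmb8 and Psmb9 fell by 2.13 (edgeR adjusted p = 0.034) and 2.1 (adjusted p = 0.0446). All 4 overlapped between the sides in adjacent lung. Median log2 differences between the tumour labels were also negative for the T and NK cell (-2.26), interferon response (-2.12), club cell (-3.2) and ciliated cell (-3.18) lists. That of all genes was -0.035, and some lists were positive, such as the mesothelial list at 1.42. How far such shifts entered the 4 falls was not tested. None of the 4 calls held without any one of tumour VEH replicates 1, 2 and 3 and HDM replicates 1 and 2, nor in a fit of the 2 tumour groups alone.

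**Figure D5:**
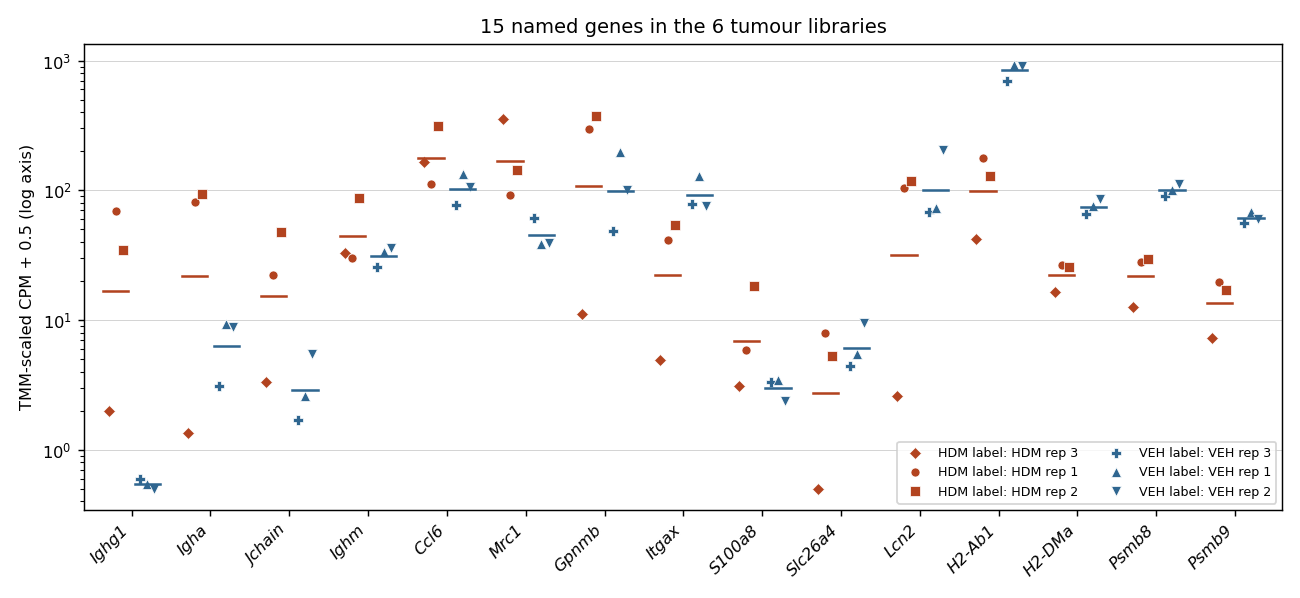
TMM-scaled CPM + 0.5 on a log axis for 15 genes in the 6 tumour libraries, with 1 point per library, orange for the HDM and blue for the VEH label, and bars at geometric means of 3 libraries. Ighg1 is at 68.8 and 33.9 CPM in HDM replicates 1 and 2 and at 1.49 CPM or less in the other 4, and H2-Ab1, H2-DMa, Psmb8 and Psmb9 are lower in each HDM library than in any VEH library.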

How the data were processed

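RNA from adjacent lung and tumour pieces was sequenced as paired reads from libraries made by a stranded dUTP workflow, per the labels' protocols, which name poly(A) selection and rRNA depletion without saying which was used. The deposited table holds raw counts per gene for 78298 gene IDs and 12 libraries. The submitters' processing notes name Trim Galore, STAR, Subread and featureCounts and the build mm39, with no settings, so the strand setting of counting is not given in the sources used here. Symbols, positions and biotypes came from GENCODE M39 (GRCm39), which held 78168 of the IDs, and promoter letters from the GRCm39 genome.

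Counts were scaled by TMM and described as CPM. Log2 differences are between mean log2(CPM + 0.5) of the 2 sides, over genes with a mean of at least 1 CPM in the 6 adjacent lungs. Named genes are members of the lists and the 15 genes in each direction with the widest gap, a mean of at least 8 CPM and a symbol, without Chil3 and receptor segments. The libraries, lists and tests were chosen with earlier results of these data known. Labelled treatments were compared with edgeR 4.0.16 (quasi-likelihood, robust, filterByExpr minimum count 10, all 12 libraries, Benjamini-Hochberg adjusted p below 0.05) in R 4.3.3, and with DESeq2 1.42.0 as an alternative. Other alternatives changed the scaling, pseudocount, filters, samples in the fit, a replicate block and each library in turn. The scripts were tested on simulated data. A single count equalled 0.0315 to 0.0421 CPM. Intervals of shares are Wilson intervals.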

Additional observations from a re-analysis of the deposited data

How the results depend on the processing

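The count of genes higher above the threshold by a gap of at least 2-fold, 356, was 245 with a pseudocount of 2 CPM and 255 with a mean of at least 5 CPM, ranged from 380 to 585 when 1 library was left out and was 597 without the 2 libraries with conflicting prefixes. The count of lower genes, 42, was 15 with a pseudocount of 2 CPM, 18 with a mean of at least 5 CPM, 123 without the conflicting pair and 54 to 301 when 1 library was left out. The highest values of both ranges came without adjacent lung HDM replicate 2, and fewer libraries make a gap easier to meet. The median of the eosinophil, mast cell and basophil list changed from -0.22 to 0.332 with no filter and to 0.12 without the conflicting pair, and ranged from -0.192 (without VEH replicate 3) to 0.065 (without VEH replicate 2). It was 0.015 without VEH replicate 1. The basal and tuft cell median changed from 0.62 to -0.042 with no filter. In all, 11 of the 27 list medians changed sign under at least 1 alternative: those 2 lists, the LLC tumour list (0.54, and -0.328 without VEH replicate 2), the mucous, ion transport and adipose lists (without HDM replicate 2: -0.124, -0.074 and -0.098), the T and NK cell, cell cycle, type 1 cell, fibroblast and interferon lists. The macrophage, neutrophil, B and plasma cell and type 2 cell lists were among the 16 that kept their sign. For HDM against VEH in adjacent lung, 0 calls became 43 with DESeq2's Wald test and 39 without the conflicting pair, and stayed 0 when any 1 library was left out. In tumours, 21 calls became 8 with library size only, 52 with no filter, 53 when each library had to reach 10 counts, 1308 with DESeq2's Wald test and 0 with only the 2 groups compared. They ranged from 0 to 24 when 1 library was left out, 24 without tumour HDM replicate 3. Apart from fewer libraries or genes, the cause was not tested. With the replicate number as a block, edgeR called 0 genes in adjacent lung and 1 in tumours. Correlations of same-numbered libraries were -0.538, 0.087 and 0.397 in adjacent lung and -0.255, 0.299 and 0.141 in tumours, so the numbers were not used as a pairing.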
